A study of Mus musculus with 15 samples.

Results

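The genes described here are 32 genes of glycolysis and of the response to hypoxia, read in 3 dendritic cell subsets of the mouse thymus. They were chosen by name and not by a rule on measured values, though earlier results of these data were known. They come from the 22165 rows of the deposited gene count table, through Ensembl identifiers matched to mouse symbols. All 32 had a row and all 32 passed the filter on low counts, which kept 11746 genes for testing. By role they are 3 glucose transporters, 12 genes of hexokinase and upper glycolysis, 5 genes of lower glycolysis, 6 genes of lactate and pyruvate fate, and 6 genes of hypoxia-inducible factor 1 (HIF1) and other targets of it.

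Cells came from the thymi of C57BL/6 mice of both sexes, aged 8 to 12 weeks. The KO mice were Itgax-cre Stk11 fl/fl, in which the Cre recombinase is driven by the gene for CD11c and removes floxed Stk11, the gene for the kinase LKB1, from CD11c-expressing cells, and the controls were WT. Every mouse, WT and KO alike, carried a subcutaneous B16 melanoma secreting the dendritic cell growth factor Flt3L, and thymi were taken 9 to 12 days after its injection, so that no group represents a thymus at rest. After enrichment on CD11c, cells were sorted as conventional dendritic cells of type 1 (cDC1, CD8a+CD11c+MHCII+), conventional dendritic cells of type 2 (cDC2, CD11b+CD11c+MHCII+) and plasmacytoid dendritic cells (pDC, Siglec-H+CD11cint). The 15 libraries of strand-specific 3′ tags were 2 cDC1 WT, 2 cDC1 KO, 2 cDC2 WT, 3 cDC2 KO, 3 pDC WT and 3 pDC KO. The labels do not say that replicates were separate mice, or whether mice were pooled, so a p-value here measures only the spread between these samples.

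Glycolysis takes up glucose through GLUT transporters, traps it with a hexokinase, splits it into trioses and carries those to pyruvate. Pyruvate is then reduced to lactate by lactate dehydrogenase and exported through monocarboxylate transporters, or enters mitochondria through pyruvate dehydrogenase, which the PDK kinases inhibit. HIF1 is a transcription factor, stabilised when oxygen is low, that raises many of these genes. LKB1 activates AMPK, an energy sensor that acts on glucose use and on mTOR and HIF1 signalling. Dendritic cells are known to raise glycolysis on activation. Several steps are served by paralogs with different regulation, such as Hk1, Hk2 and Hk3, or Ldha and Ldhb.

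Promoters are shown for 4 members, chosen after their values were seen: Hk2, Ldha and Slc16a3, which were lower in pDC, and Ldhb, which was higher in pDC. The sequences are RefSeq's (GRCm38.p6), the 250 bases before an annotated start, 5′ to 3′ on the gene's strand. Capitals mark each ACGTG, the core letters of a hypoxia response element, on either strand, where its reverse complement reads CACGT. Both readings overlap where CACGTG occurs, and each is then counted. The windows are chr6:82774455-82774704 on the minus strand for Hk2, chr7:46845554-46845803 on the plus strand for Ldha, chr11:120948817-120949066 on the plus strand for Slc16a3 and chr6:142507958-142508207 on the minus strand for Ldhb.
Hk2: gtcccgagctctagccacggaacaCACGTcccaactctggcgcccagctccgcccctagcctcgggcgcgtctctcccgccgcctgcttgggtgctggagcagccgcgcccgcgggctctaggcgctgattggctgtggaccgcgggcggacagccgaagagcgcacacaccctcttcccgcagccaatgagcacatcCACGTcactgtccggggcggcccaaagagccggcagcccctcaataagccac
Ldha: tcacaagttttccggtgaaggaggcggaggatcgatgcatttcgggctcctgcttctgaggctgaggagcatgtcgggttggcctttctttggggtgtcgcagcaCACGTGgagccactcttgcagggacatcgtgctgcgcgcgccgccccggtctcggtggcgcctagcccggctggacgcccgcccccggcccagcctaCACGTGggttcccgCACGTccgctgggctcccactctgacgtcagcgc
Slc16a3: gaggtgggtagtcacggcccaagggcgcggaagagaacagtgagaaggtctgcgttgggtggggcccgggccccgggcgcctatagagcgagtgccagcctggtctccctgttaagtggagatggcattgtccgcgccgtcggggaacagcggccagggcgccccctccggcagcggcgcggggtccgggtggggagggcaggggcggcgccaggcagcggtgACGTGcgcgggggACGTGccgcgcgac
Ldhb: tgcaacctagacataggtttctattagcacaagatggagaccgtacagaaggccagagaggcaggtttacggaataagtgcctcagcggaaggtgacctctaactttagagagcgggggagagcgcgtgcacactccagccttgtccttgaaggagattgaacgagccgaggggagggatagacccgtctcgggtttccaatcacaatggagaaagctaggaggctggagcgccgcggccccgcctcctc

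ACGTG was read 5 times in the Ldha window shown, 2 times in Hk2 and 2 times in Slc16a3. It was read 0 times in Ldhb and 0 times in the other listed Ldha window. Of the 32 members, 31 matched RefSeq windows of 300 bases that also take in 50 bases after the start, and 21 of the 31 had ACGTG in at least 1 window. Slc2a3 was not matched. By window, 24 of 45 member windows held ACGTG (53.3%), against 6447 of all 32851 windows (19.6%). The full CACGTG, which MYC and USF factors also bind, stood in 6 of the 45 (13.3%) and in 2349 of all windows (7.2%). The 4 genes shown do not stand for the rest. Of 16 members called lower in pDC in at least 1 comparison, 11 held ACGTG and 5 did not (Gpi1, Pfkl, Pfkp, Tpi1 and Pdk1). Of the 3 matched members called higher, Egln3 held it and Slc2a6 and Ldhb did not, and it was held by 9 of 12 members called in no comparison with pDC. A match is a run of letters, not a site of binding, and the share is given as a description with no test.

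Total counts per library ran from 3928164 to 12142712. Levels are in CPM, counts scaled to the TMM library size, and ± marks the SD among a group's libraries. Stk11 read 44.9 ± 13.2 CPM in cDC1 WT (n = 2) and 24.5 ± 8.65 in cDC1 KO (n = 2), 34.6 ± 0.501 in cDC2 WT (n = 2) and 31.2 ± 4.29 in cDC2 KO (n = 3), and 51.4 ± 13.7 in pDC WT (n = 3) and 37.8 ± 5.25 in pDC KO (n = 3). None of these differences passed the threshold (adjusted p 0.633 to 1.00), and since tags from the 3′ end need not lie in the floxed stretch, this level does not check the deletion. The summed CPM of 10 pDC markers was 34970 to 55560 in pDC and 904 to 1879 elsewhere. That of 10 cDC1 markers was 6284 to 10210 in cDC1, 1913 to 3767 in cDC2 and 6105 to 8714 in pDC, with Cd207 at 0 in cDC2 WT and pDC WT. Irf8, which is on that list, is known to be expressed by pDC. That of 10 cDC2 markers was 751 to 1153 in cDC2, 114 to 200.0 in cDC1 and 550.2 to 730 in pDC, with Clec4a4 at 0 in pDC KO. Among other cell types, 14 thymocyte markers summed to 413 to 588 CPM in pDC, 148 to 275 in cDC1 and 97.6 to 176 in cDC2, with only Rag2 at 0, in cDC2 KO. The 8 macrophage markers summed to 9.11 to 18.2 CPM in pDC, 18.0 to 47.2 in cDC1 and 49.8 to 107 in cDC2, with Timd4 at 0 in pDC WT and Adgre1 at 0 in pDC KO. The 6 melanoma markers summed to at most 0.581 CPM in any library and were all at 0 in cDC2 WT and in pDC. The part of these cells in the subset differences was not tested.

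Signs of library content moved with subset: 10932 to 11517 genes were detected in pDC, 12621 to 13144 in cDC1, 12909 to 13797 in cDC2 KO and 10840 to 11500 in cDC2 WT. Ribosomal protein genes took 2.68% to 5.08% of counts in pDC, 5.91% to 6.60% in cDC1 and 3.76% to 5.69% in cDC2. The library pDC WT 3 stood apart, with a TMM factor of 0.841 (0.938 to 1.08 in the 14 others), the lowest ribosomal share (2.68%) and the widest spread from its replicates (chi-square over degrees of freedom 79.4 and 101, beside 27.9 to 63.7 in the 10 pairs without it). The part of these differences in the values below was not tested.

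More members were called between pDC and the conventional subsets than between cDC1 and cDC2, and so it was among all tested genes. For cDC2 against cDC1, 8.73% of all tested genes were called in WT and 1.27% in KO. In WT, 15 of the 32 were lower in pDC than in cDC1 and 2 were higher, and 7 were lower and 3 higher in pDC than in cDC2. In KO, 9 were lower and 3 higher in pDC than in cDC1, and 8 were lower and 2 higher in pDC than in cDC2. Without pDC WT 3 the WT comparisons had 15 calls instead of 17 against cDC1 and 8 instead of 10 against cDC2. A call is an adjusted p under 0.05 in edgeR's quasi-likelihood test, two-sided, with Benjamini-Hochberg adjustment over the 11746 genes. These counts stand against the share of all tested genes called: 27.7% for pDC against cDC1 in WT (14.8% lower, 12.8% higher), 23.6% for pDC against cDC2 in WT (12.2% lower, 11.4% higher), 21.5% for pDC against cDC1 in KO (12.4% lower, 9.08% higher) and 25.9% for pDC against cDC2 in KO (14.9% lower, 10.9% higher). The median log2 difference of the members was -0.78 for pDC minus cDC1 in WT and -0.61 in KO, beside -0.05 and -0.09 over all tested genes. For pDC minus cDC2 it was -0.66 in WT and -0.59 in KO, beside 0.07 and -0.08. In bulk libraries a lower share of cells with a transcript and less of it per cell cannot be told apart.

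The WT and the KO comparisons of 2 subsets use different libraries. For pDC against cDC1, 10 members were called with the same sign in both genotypes, which is 58.8% of the WT calls and 83.3% of the KO calls: Hk2, Hk3, Pfkp, Pfkfb3, Tpi1, Pgam1, Ldha and Slc16a3 were lower in pDC, and Slc2a3 and Slc2a6 higher. For pDC against cDC2, 7 were shared, 70.0% of the calls of each genotype: Hk2, Pfkp, Pfkfb3, Pgam1, Ldha and Slc16a3 were lower in pDC and Ldhb higher. No member was called with opposite signs. The sign of the log2 difference was the same in both genotypes for 31 of 32 members in pDC minus cDC1 and for 25 of 32 in pDC minus cDC2. Shared calls and signs were not counted over all tested genes, so this agreement cannot be read as particular to the members.

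**Figure D1:**
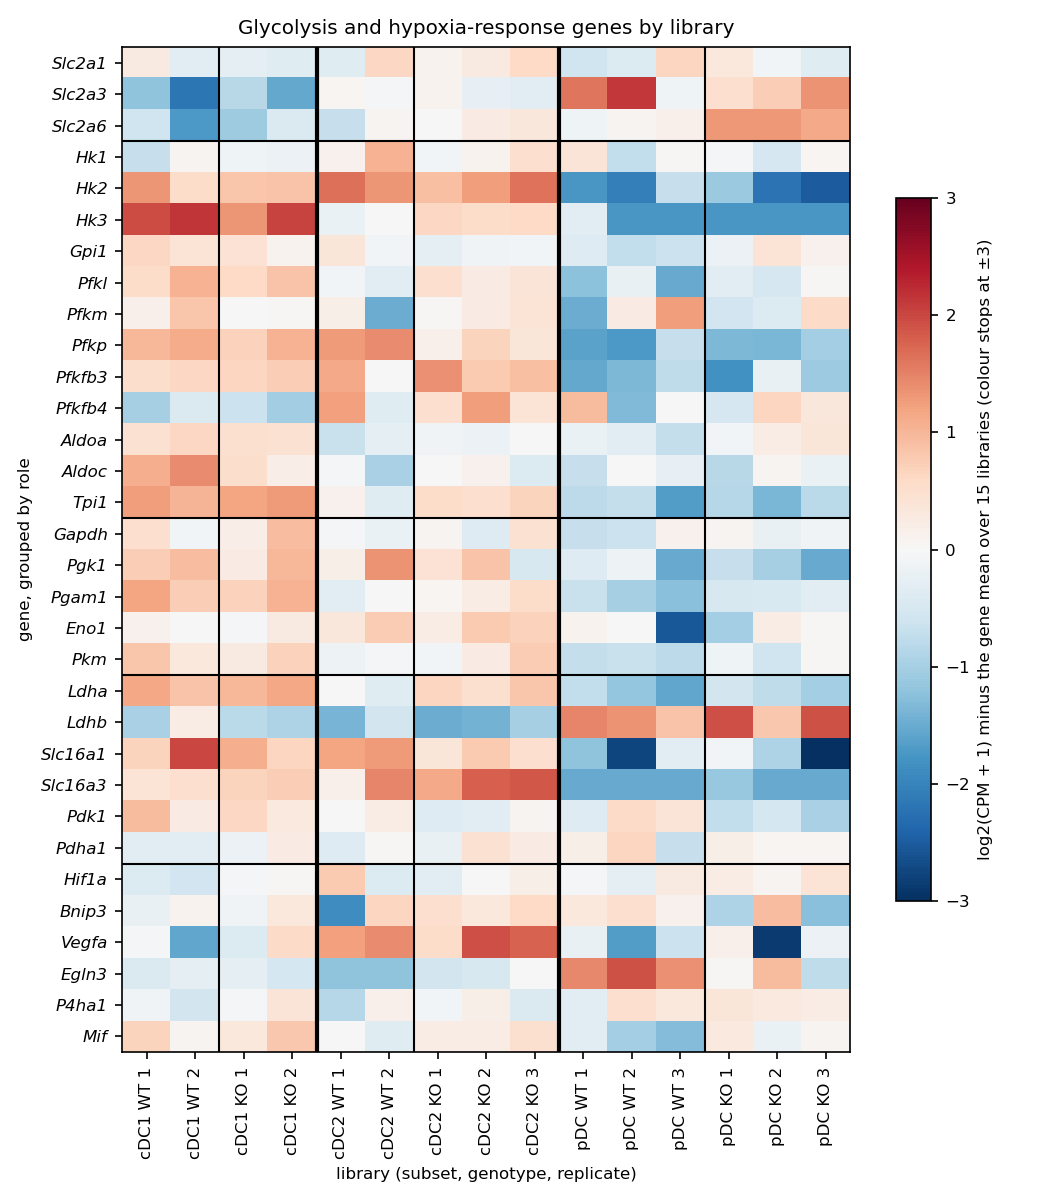
Each row is 1 of the 32 genes, grouped by role, and each column 1 of the 15 libraries, grouped by subset and genotype; colour is log2(CPM + 1) minus the gene's mean over the libraries. The pDC columns are low for Hk2, Pfkp, Pfkfb3, Tpi1, Pgam1 and Ldha and high for Ldhb.

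Of the glucose transporters, Slc2a3 and Slc2a6 were higher in pDC than in cDC1 in both genotypes. Against cDC2, Slc2a3 was called in WT and Slc2a6 in KO, and Slc2a1 did not pass the test in any comparison. Slc2a3 encodes GLUT3, a high-affinity glucose carrier. It read 8.68 and 4.005 CPM in the cDC1 WT libraries, 22.3 and 20.5 in cDC2 WT, and 67.5, 96.5 and 19.3 in pDC WT. In KO it read 11.6 and 6.71 in cDC1, 23.1, 17.8 and 16.6 in cDC2, and 30.7, 36.5 and 55.9 in pDC. Every pDC library lay above every cDC1 library, whereas pDC WT 3 lay below both cDC2 WT libraries. Slc2a3 was 9.71-fold higher in pDC than in cDC1 in WT (log2 difference 3.28 ± 0.59 SE, adjusted p = 0.000494), and the fold was 15.5 without cDC1 WT 1. In KO it was 4.45-fold higher (2.16 ± 0.55, adjusted p = 0.00864), a call lost without cDC1 KO 2 (adjusted p = 0.122). Against cDC2 in WT the difference was 1.51 ± 0.53 (adjusted p = 0.0465). In KO the groups were apart, but the difference of 1.10 ± 0.45 from cDC2 was not called (adjusted p = 0.0851). The WT call against cDC2 was lost with RLE scaling (0.0563), a strict filter (0.0546) or a fit of the compared groups alone (0.137). Leaving out any 1 of 11 libraries also ended it, namely cDC1 KO 1 and 2, cDC1 WT 1, cDC2 KO 1, 2 and 3, cDC2 WT 1 and 2, pDC KO 2 and pDC WT 1 and 2, with adjusted p of 0.0502 to 0.191.

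Slc2a6 encodes GLUT6, a facilitative glucose transporter found on intracellular membranes. It read 12.9 and 5.46 CPM in cDC1 WT, 12.1 and 21.4 in cDC2 WT and 18.5, 21.3 and 22.4 in pDC WT. In KO it read 9.16 and 14.6 in cDC1, 20.1, 24.2 and 26.0 in cDC2 and 50.8, 50.8 and 45.7 in pDC. The pDC KO libraries stood above all 12 others. The log2 difference of pDC minus cDC1 was 2.05 ± 0.40 in KO (adjusted p = 0.00118) and 1.19 ± 0.40 in WT (adjusted p = 0.0352). The WT call was lost without cDC1 WT 2 (adjusted p = 0.360), pDC WT 2 (0.0596) or pDC WT 3 (0.0647), and without cDC1 WT 1 the fold was 3.84 instead of 2.28. Against cDC2, Slc2a6 was higher in pDC in KO (1.07 ± 0.34, adjusted p = 0.0255), a call lost without any 1 of the cDC2 KO libraries, pDC KO 1 or pDC KO 2 (adjusted p 0.0537 to 0.0961). In WT the Slc2a6 ranges of pDC and cDC2 overlapped and the difference of 0.30 ± 0.38 was not called (adjusted p = 0.624). The WT call against cDC1 was also lost with no filter (0.0542) or with the compared groups alone (0.0929). Slc2a1, the ubiquitous GLUT1, averaged 21.8 to 35.3 CPM over the 6 groups.

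Of the 12 genes of hexokinase and upper glycolysis, 9 were lower in pDC than in cDC1 in WT and 5 of 12 in KO, and 3 of 12 were lower in pDC than in cDC2 in WT and 5 of 12 in KO. Hk2 encodes the inducible hexokinase bound to mitochondria. It read 248 and 145 CPM in cDC1 WT, 314 and 250.3 in cDC2 WT and 28.6, 23.2 and 60.6 in pDC WT. The KO libraries read 178 and 179 in cDC1, 185, 238 and 306 in cDC2 and 44.8, 20.7 and 16.8 in pDC. Every pDC library lay below every conventional one, in both genotypes. Hk2 was 5.23-fold lower in pDC than in cDC1 in WT (log2 -2.39 ± 0.43, adjusted p = 0.000462) and 6.48-fold lower in KO (-2.70 ± 0.43, adjusted p = 0.000186). Against cDC2 it was 7.51-fold lower in WT (-2.91 ± 0.43, adjusted p = 8.66e-05) and 8.83-fold lower in KO (-3.14 ± 0.42, adjusted p = 1.92e-05). None of these 4 calls was lost under any alternative run. Hk1, the constitutive hexokinase, averaged 22.9 to 43.7 CPM over the 6 groups and passed the test nowhere.

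Hk3, a hexokinase of myeloid cells, was highest in cDC1. It read 12.0 and 13.8 CPM in cDC1 WT, 7.46 and 12.7 in cDC1 KO, 1.94 and 2.41 in cDC2 WT and 4.14, 3.91 and 4.07 in cDC2 KO. In pDC it was at 0 counts in 5 of 6 libraries, with 13 counts (1.69 CPM) in pDC WT 1. In KO, against a floor of 3 counts over the pDC group, Hk3 was at least 64.8-fold higher in cDC1 (144 counts, adjusted p = 0.000823) and at least 26.2-fold higher in cDC2 (106 counts, adjusted p = 0.00226). In WT it was lower in pDC than in cDC1 (log2 -4.50 ± 1.10, adjusted p = 0.00620). Leaving out pDC WT 1 turned the pDC group to 0 and the fitted log2 value to -9.49, and leaving out pDC WT 3 gave -3.89. Floors and counting intervals cover counting error only, as the libraries hold no molecular identifiers.

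Phosphofructokinase commits sugar to glycolysis, and of its 3 paralogs the platelet-type Pfkp was called in all 4 comparisons with pDC. Pfkp read 251 and 272 CPM in cDC1 WT, 306 and 335 in cDC2 WT and 40.5, 37.2 and 77.1 in pDC WT. Its KO values were 202 and 259 in cDC1, 138, 198 and 161 in cDC2 and 48.0, 47.3 and 61.1 in pDC. No pDC library reached the lowest conventional one. It was 5.06-fold lower in pDC than in cDC1 in WT (log2 -2.34 ± 0.31, adjusted p = 2.58e-05) and 4.42-fold in KO (-2.14 ± 0.31, adjusted p = 6.72e-05), and 6.20-fold lower than in cDC2 in WT (-2.63 ± 0.31, adjusted p = 9.08e-06) and 3.18-fold in KO (-1.67 ± 0.29, adjusted p = 0.000291). None of these 4 calls was lost under any alternative run. The liver-type Pfkl was 22.3 ± 5.60 CPM in cDC1 WT (n = 2) and 6.13 ± 3.55 in pDC WT (n = 3), lower in pDC by a log2 of -1.86 ± 0.43 (adjusted p = 0.00341, and 0.0536 without cDC1 WT 2). The muscle-type Pfkm averaged 1.09 to 3.06 CPM and passed nowhere.

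Pfkfb3 and Pfkfb4 make and break the fructose bisphosphate that activates phosphofructokinase. Pfkfb3 read 34.7 and 37.1 CPM in cDC1 WT, 52.9 and 23.9 in cDC2 WT and 7.55, 8.64 and 13.5 in pDC WT. In KO it read 37.3 and 40.1 in cDC1, 62.9, 41.6 and 45.2 in cDC2 and 6.00, 20.3 and 10.5 in pDC. It was lower in pDC in all 4 comparisons. The log2 differences were -1.86 against cDC1 (adjusted p = 0.00461) and -1.95 against cDC2 (0.00375) in WT, and -1.65 (0.0116) and -2.02 (0.00132) in KO. The WT difference from cDC2 was -1.26 without cDC2 WT 1 (adjusted p = 0.0928), and the KO difference from cDC1 was not called without cDC1 KO 2 (adjusted p = 0.0678). Pfkfb4 averaged 1.70 to 7.22 CPM and was not called.

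Of the remaining upper genes, Tpi1, which interconverts the trioses, was lowest in pDC. It read 76.9 and 65.5 CPM in cDC1 WT, 34.7 and 24.4 in cDC2 WT and 18.0, 19.1 and 9.18 in pDC WT. The KO libraries read 73.6 and 78.2 in cDC1, 47.1, 45.6 and 50.8 in cDC2 and 17.1, 11.7 and 17.7 in pDC. The 3 subsets did not overlap within either genotype. Tpi1 was 4.62-fold lower in pDC than in cDC1 in WT (adjusted p = 8.94e-05) and 4.91-fold in KO (adjusted p = 6.56e-05), and 3.09-fold lower than in cDC2 in KO (adjusted p = 0.000652). Against cDC2 in WT its log2 difference of -0.94 ± 0.33 missed the threshold (adjusted p = 0.0503). In WT, pDC were also below cDC1 for Gpi1, the isomerase after hexokinase (log2 -1.12, adjusted p = 0.00538, and 0.0667 without cDC1 WT 1), for the aldolase Aldoa (-0.96, 0.0126) and for the aldolase Aldoc (-1.77, 0.0324). The Aldoa call was lost without cDC1 WT 1 (0.0581) or cDC1 WT 2 (0.0888), with the compared groups alone (0.0522) and with offsets for transcript length and GC content, where its log2 was -0.51 (0.186). The Aldoc call was lost with no filter (0.0680) and with those offsets (0.0546). It was also lost without either library of cDC1 KO or of cDC1 WT, and without pDC WT 1 or pDC WT 3 (0.0525 to 0.188). None of the 3 was called in KO.

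**Figure D2:**
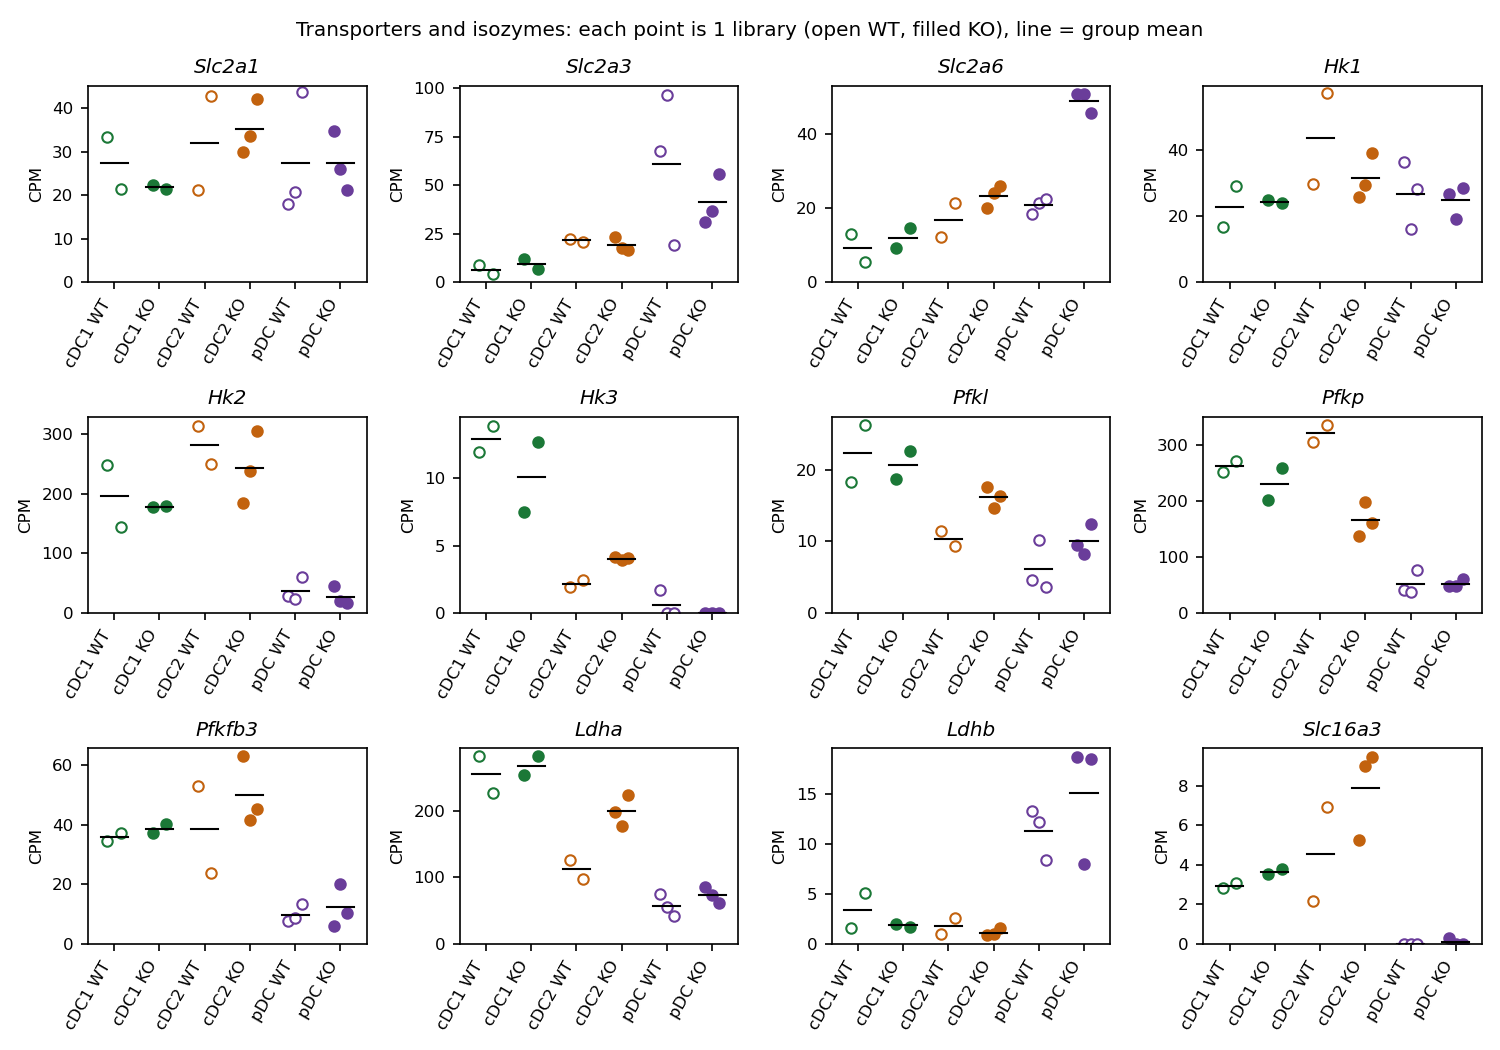
Each panel is 1 of 12 genes, with CPM on the vertical axis from 0 and the 3 subsets along the horizontal axis; each point is a library, open for WT and filled for KO, and lines are group means. Hk2, Pfkp and Ldha are low in all 6 pDC libraries, and Ldhb and Slc2a3 are high there, with Slc2a3 overlapping cDC2 through pDC WT 3.

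Of the 5 genes of lower glycolysis, Pgam1 and Pkm were lower in pDC than in cDC1 in WT and Pgam1 alone was called in KO. Pgam1, phosphoglycerate mutase, read 177 and 129 CPM in cDC1 WT, 61.9 and 77.0 in cDC2 WT and 48.1, 38.3 and 31.7 in pDC WT. Its KO values were 125 and 160.0 in cDC1, 80.7, 90.2 and 113 in cDC2 and 54.6, 56.2 and 61.3 in pDC. The order was cDC1, then cDC2, then pDC in both genotypes, with no overlap between subsets. The log2 difference from cDC1 was -1.96 ± 0.28 in WT (adjusted p = 5.78e-05) and -1.31 ± 0.28 in KO (adjusted p = 0.00229). Against cDC2 it was -0.82 in WT (adjusted p = 0.0433) and -0.72 in KO (adjusted p = 0.0451). The WT call against cDC2 was lost with no filter (0.0818) and with the compared groups alone (0.148), and the KO call with either of these, RLE scaling or the offsets (0.0540 to 0.118). Both cDC2 calls were lost on leaving out 1 library, for 9 libraries in WT and 10 in KO. For WT these were cDC1 KO 1 and 2, cDC1 WT 2, cDC2 KO 1, cDC2 WT 1 and 2, pDC KO 2 and pDC WT 2 and 3 (adjusted p 0.0512 to 0.230), and for KO each cDC1, cDC2 KO and pDC KO library (adjusted p 0.0504 to 0.176).

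Pkm, pyruvate kinase, read 146 and 103 CPM in cDC1 WT and 49.5, 51.2 and 46.8 in pDC WT, a log2 difference of -1.34 ± 0.30 (adjusted p = 0.00310, and 0.0753 without cDC1 WT 1). In KO the difference was -0.70 (adjusted p = 0.113). Gapdh, Pgk1 and Eno1 were not called between any subsets. The tags of some members are less certain. Of 50-base words in the last 500 bases of the transcript, 90.47% for Gapdh, 75.17% for Eno1 and 7.32% for Pgk1 also occur in other annotated genes. Examples are Gm7336 for Gapdh and Eno1b for Eno1. The share was 56.1% for Mif, 24.39% for Ldhb, 4.21% for Gpi1 and 3.33% for Aldoa, and 0 for the other 25 members. Mif, Ldhb, Gpi1 and Aldoa were called between subsets, so this limit holds for their calls too. Pfkm, Pkm and Hif1a share exon sequence on the same strand with Gm26513, Gm49759 and Gm49321. How the counting treated such reads is not given in the sources used here.

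In the fate of pyruvate, the pDC libraries held less Ldha and more Ldhb. Ldha, the lactate dehydrogenase subunit that favours lactate formation, read 282 and 226 CPM in cDC1 WT, 127 and 98.1 in cDC2 WT and 75.3, 55.5 and 41.7 in pDC WT. In KO it read 253 and 282 in cDC1, 197, 176 and 223 in cDC2 and 85.3, 73.9 and 61.6 in pDC. All 6 pDC libraries lay below all 9 others. Ldha was 4.42-fold lower in pDC than in cDC1 in WT (log2 -2.14 ± 0.29, adjusted p = 2.45e-05) and 3.63-fold in KO (-1.86 ± 0.28, adjusted p = 0.000110). It was 2.70-fold lower than in cDC2 in KO (-1.43 ± 0.26, adjusted p = 0.000494). In WT it was 1.95-fold lower than in cDC2 (-0.97 ± 0.28, adjusted p = 0.0200), a call lost without cDC2 WT 1 (0.144), pDC WT 2 (0.0503) or pDC WT 3 (0.0577), and with the compared groups alone (0.102).

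Ldhb, the subunit that favours pyruvate, ran the other way. It read 1.64 and 5.10 CPM in cDC1 WT, 0.971 and 2.56 in cDC2 WT and 13.3, 12.3 and 8.39 in pDC WT. The KO libraries read 1.96 and 1.75 in cDC1, 0.856, 0.957 and 1.60 in cDC2 and 18.7, 8.05 and 18.6 in pDC. Every pDC library lay above every other library. Ldhb was higher in pDC than in cDC2 by a log2 of 2.62 ± 0.69 in WT (adjusted p = 0.0103) and 3.72 ± 0.61 in KO (adjusted p = 0.000184), and higher than in cDC1 by 3.01 ± 0.69 in KO (adjusted p = 0.00409). Against cDC1 in WT the difference was 1.72 ± 0.65 (adjusted p = 0.0579). The WT call against cDC2 was lost without cDC2 WT 1 (adjusted p = 0.0807), and the value was 3.52 without cDC2 WT 2. The KO call against cDC1 was lost without cDC1 KO 1 (0.0512) or cDC1 KO 2 (0.0626). Thymocyte markers, also highest in pDC, and Ldhb moved together here, and their part in the Ldhb difference was not tested.

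Of the 2 monocarboxylate transporters among the members, Slc16a3 was lower in pDC in all 4 comparisons and Slc16a1 in WT. Slc16a3 (MCT4, a lactate exporter and HIF1 target) had 0 counts in the 3 pDC WT libraries and 2 counts in pDC KO, against 29 in cDC1 WT, 53 in cDC1 KO, 55 in cDC2 WT and 215 in cDC2 KO. Per library it read 2.81 and 3.09 CPM in cDC1 WT, 3.53 and 3.79 in cDC1 KO, 2.19 and 6.93 in cDC2 WT and 5.28, 9.02 and 9.44 in cDC2 KO, so every conventional library stood above every pDC one. With a floor of 3 counts over the pDC WT group, it was at least 24.0-fold higher in cDC1 WT (adjusted p = 0.00100) and at least 41.3-fold higher in cDC2 WT (adjusted p = 0.000522). In KO the ratio to pDC was 35.8 in cDC1 (counting interval 9.43 to 303, adjusted p = 0.00460) and 79.6 in cDC2 (21.8 to 662, adjusted p = 0.000624). Both pDC KO counts came from pDC KO 1, so without it the group was at 0. Slc16a1 (MCT1) averaged 29.8 ± 18.9 CPM in cDC1 WT, 24.9 ± 0.937 in cDC2 WT (n = 2 each) and 4.12 ± 3.66 in pDC WT (n = 3). It was lower in pDC than in cDC1 (log2 -2.84, adjusted p = 0.0210, and 0.218 with a value of -1.98 without cDC1 WT 2) and than in cDC2 (-2.58, adjusted p = 0.0374). Without pDC WT 3 these values were -3.73 and -3.50. The cDC2 call was lost without any 1 of 10 libraries, namely cDC1 KO 1 and 2, cDC1 WT 2, cDC2 KO 1, 2 and 3, cDC2 WT 1 and 2 and pDC WT 1 and 2 (adjusted p 0.0502 to 0.119). In KO, Slc16a1 was 19.4 ± 4.56 CPM in cDC1 (n = 2), 15.3 ± 2.51 in cDC2 and 4.83 ± 4.64 in pDC (n = 3 each), with ranges apart but no call (log2 -1.99, adjusted p = 0.108 against cDC1, and -1.65, adjusted p = 0.137 against cDC2). Slc16a7 (MCT2), which is no member, was higher in pDC than in cDC1 in WT: 6.34 ± 3.48 CPM in pDC (n = 3) and 0.651 ± 0.406 in cDC1 (n = 2), log2 3.29, adjusted p = 0.0273 in edgeR. That call was lost without either cDC1 WT library, pDC WT 1 or pDC WT 3, and with the offsets for length and GC content (up to 0.196). Slc16a7 did not stand above cDC2 in pDC: cDC2 WT read 7.33 ± 4.40 CPM (n = 2). In KO it read 3.13 ± 0.945 in cDC2 and 3.14 ± 2.93 in pDC (n = 3 each).

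Pdk1, which inhibits pyruvate dehydrogenase, was lower in pDC KO (5.85, 6.94 and 4.90 CPM) than in cDC1 KO (16.6 and 13.0 CPM), by a log2 of -1.32 ± 0.43 (adjusted p = 0.0329). That call was lost without cDC1 KO 1 or 2, cDC2 KO 2 or pDC KO 1 or 3 (adjusted p 0.0501 to 0.232), with no filter (0.0805) and with the compared groups alone (0.0719). Pdha1, the catalytic subunit that it acts on, averaged 26.3 to 37.9 CPM over the 6 groups and passed the test nowhere.

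Among the 6 HIF1 and other target genes, 2 were called between subsets. Egln3, an oxygen-sensing prolyl hydroxylase that is itself a HIF target, read 5.21, 7.61 and 4.99 CPM in pDC WT, 0.704 and 0.910 in cDC1 WT, and 0 in both cDC2 WT libraries. With the floor of 3 counts, its 143 counts in pDC WT were at least 21.1-fold higher than in cDC2 WT (adjusted p = 0.00364). Its KO values were 1.35, 3.47 and 0.350 in pDC and 0.571, 0.638 and 1.31 in cDC2, so the groups overlapped, and it was not called. Mif, a cytokine and HIF1 target, was lower in pDC than in cDC1 in WT (28.1 ± 10.8 CPM, n = 3, against 66.7 ± 18.7, n = 2, log2 -1.25 ± 0.33, adjusted p = 0.00948). The Mif call was lost without cDC1 WT 1 (adjusted p = 0.165), and with offsets for transcript length and GC content the difference was -0.47 (adjusted p = 0.318). Hif1a, the oxygen-regulated subunit, averaged 69.5 to 122 CPM over the groups. P4ha1 (collagen prolyl hydroxylase) averaged 30.1 to 46.1, Bnip3 (mitophagy) 2.33 to 4.05 and Vegfa (angiogenic factor) 3.38 to 20.0 CPM, and none of these 4 was called.

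**Figure D3:**
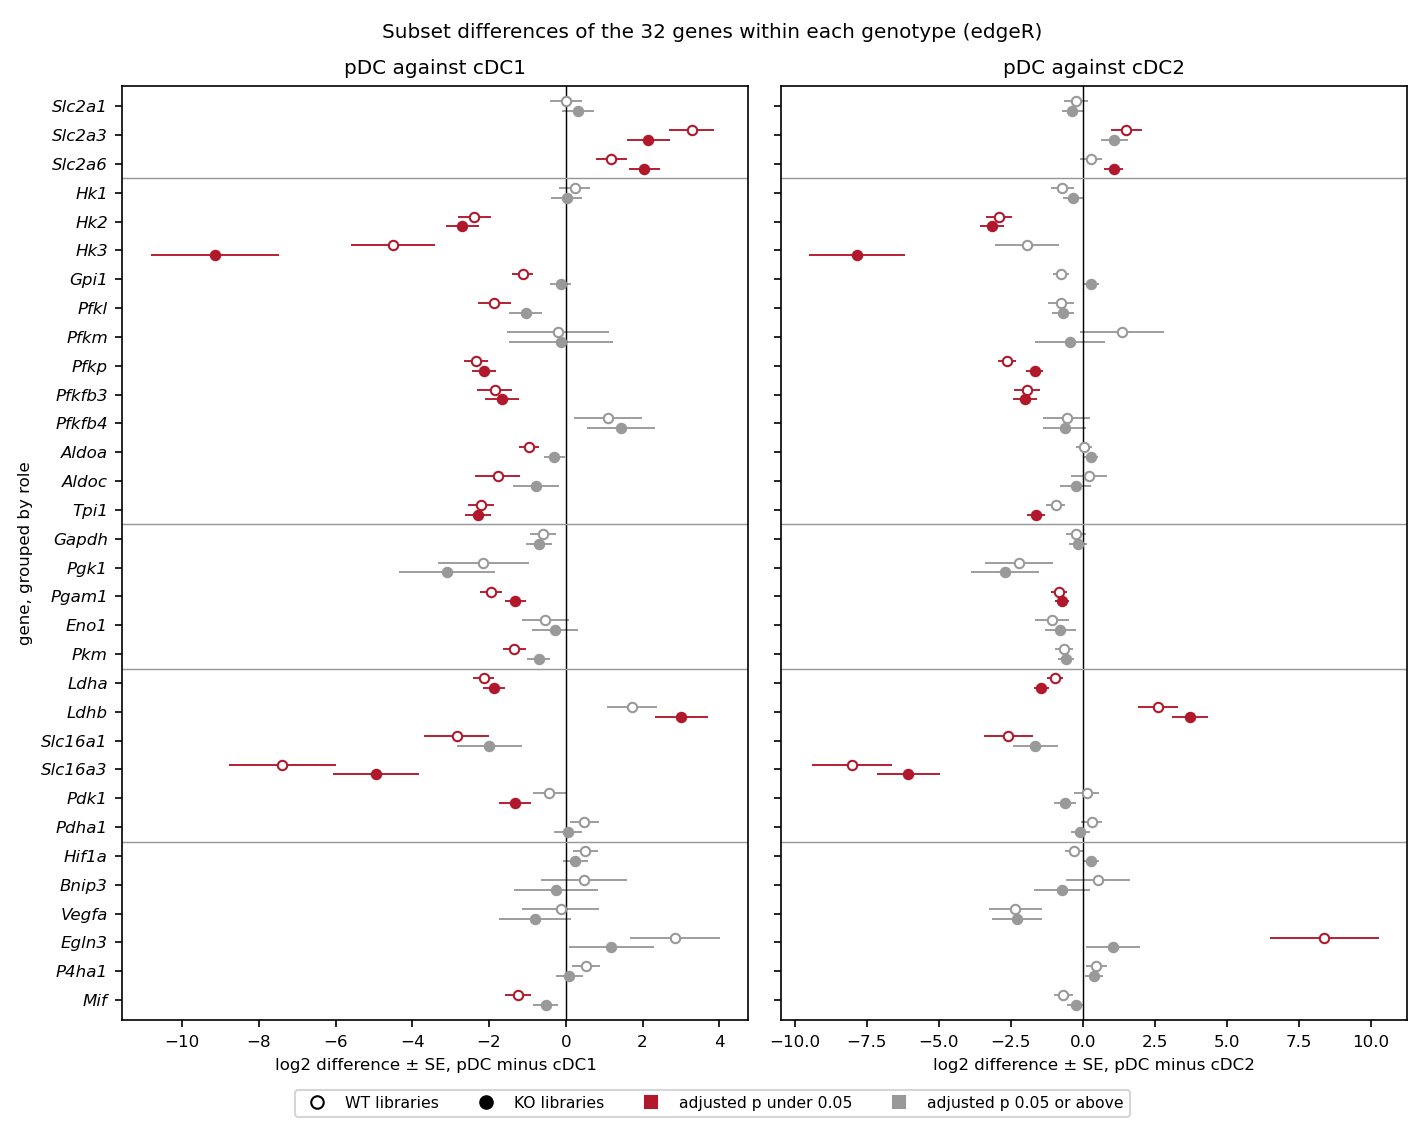
Points are log2 differences of pDC minus cDC1 (one panel) and pDC minus cDC2 (the other) for the 32 genes ordered by role, open for WT and filled for KO, with bars of 1 SE and red for an adjusted p under 0.05. Most red points lie left of 0, with Slc2a3, Slc2a6, Ldhb and Egln3 to the right.

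Between the conventional subsets fewer members were called, as was so for all tested genes. In WT, 4 of 32 were lower in cDC2 than in cDC1 and 0 were higher, where 8.73% of all tested genes were called (4.98% lower, 3.75% higher). The 4 were Ldha (log2 -1.18 ± 0.32, adjusted p = 0.0293), Pgam1 (-1.14 ± 0.32, 0.0332), Tpi1 (-1.27 ± 0.37, 0.0402) and Aldoa (-1.003 ± 0.30, 0.0455), and for each the ranges of the groups were apart. All 4 calls were lost with offsets for length and GC content (adjusted p 0.109 to 0.442), with a fit of these 2 groups alone (0.111 to 0.172), and without any 1 of the libraries cDC1 WT 1, cDC1 WT 2, cDC2 WT 1 or cDC2 WT 2 (0.0554 to 0.280). Without cDC2 KO 2, Pgam1 was also lost (0.0518). Aldoa and Tpi1 were also lost without either cDC1 KO library or any cDC2 KO library (0.0551 to 0.0706), and Aldoa without pDC KO 2 (0.0551). The lower number of genes detected in the cDC2 WT libraries than in cDC1 moved with these calls, and its part in them was not tested. In KO, 0 of 32 were called by edgeR or by DESeq2, beside 1.27% and 3.07% of all tested genes. At an unadjusted p under 0.05, which 8.76% of tested genes reached, there were 3 in KO: Slc2a6 (0.98), Pfkfb4 (2.08) and Aldoa (-0.58).

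A ratio of 2 paralogs within a library does not depend on library scaling while both counts are well above 0. It was compared between subsets over both genotypes as log2 of counts plus 0.5. Where a count is at or near 0, the 0.5 added makes the ratio depend on depth and on the other paralog's count. Of 30 tests, over 10 ratios and 3 pairs of subsets, 11 had an adjusted p under 0.05 (exact two-sided permutation of subset labels within genotype, Benjamini-Hochberg over the 30). Ldhb over Ldha was -3.19 to -1.73 in the 6 pDC libraries and -7.73 to -5.22 in the 9 others. The difference was 4.41 for pDC minus cDC1 (exact p = 0.01, adjusted 0.0429) and 4.38 for pDC minus cDC2 (exact p = 0.005, adjusted 0.0429). Hk2 over Hk1 was -0.77 to 1.10 in pDC and 2.12 to 3.89 elsewhere, a difference of -2.75 from cDC1 (exact p = 0.01, adjusted 0.0429) and -2.61 from cDC2 (exact p = 0.005, adjusted 0.0429). The pDC libraries overlapped no other library in either ratio.

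Hk3 over Hk1 differed between all 3 pairs: by -2.51 for cDC2 minus cDC1 (exact p = 0.0167), -6.66 for pDC minus cDC1 (exact p = 0.01) and -4.15 for pDC minus cDC2 (exact p = 0.015), the last 2 resting on pDC counts at or near 0. Slc2a6 over Slc2a1 was higher in pDC than in cDC1 by 1.58 (exact p = 0.01) and than in cDC2 by 1.03 (exact p = 0.015). Pfkfb4 over Pfkfb3 was lowest in cDC1, by 1.55 below cDC2 (exact p = 0.0167) and 2.86 below pDC (exact p = 0.01). Their adjusted p were 0.0429 to 0.0455. Slc2a3 over Slc2a1, at 2.50 for pDC minus cDC1, had an adjusted exact p of 0.0643, and Pfkp over Pfkl, at -1.39 for pDC minus cDC2, one of 0.05, which is not under the threshold. The smallest p allowed was 0.0167 for cDC2 against cDC1, 0.01 for pDC against cDC1 and 0.005 for pDC against cDC2. Leaving out 1 library, 0 to 15 tests passed. The number was 0 without any 1 of the cDC1 libraries, the pDC KO libraries or cDC2 WT 2, and 7 without any 1 of the cDC2 KO libraries. Leaving out a library also raises the smallest p allowed in comparisons that use it, so a lost call need not mean that the ratios changed.

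**Figure D4:**
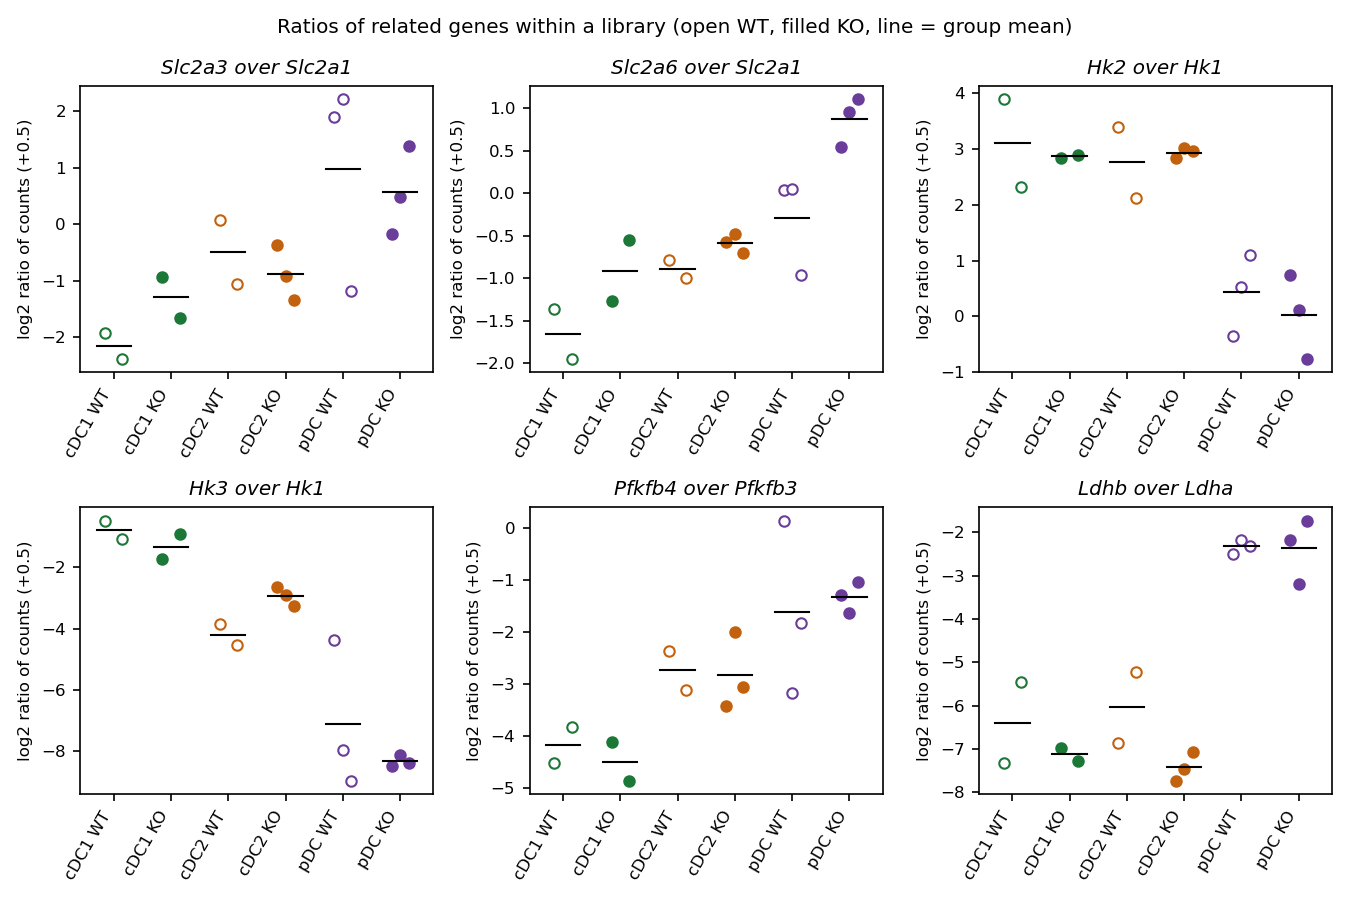
Each panel is 1 of 6 paralog ratios, as log2 of the ratio of counts plus 0.5 in each of the 15 libraries, by subset, open for WT and filled for KO. Ldhb over Ldha and Hk2 over Hk1 separate all 6 pDC libraries from the 9 others.

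Loss of LKB1 was asked about within each subset, and 0 of the 32 members passed the threshold in cDC1, in cDC2, in pDC or in the mean of the 3 subsets. Calls were few among all genes too: 0.0255% in cDC1, 0.119% in cDC2, 0.0681% in pDC and 0.306% in the mean. At an unadjusted p under 0.05 there were 0, 3, 7 and 4 members, beside 3.83%, 13.3%, 10.6% and 10.2% of all tested genes. DESeq2 called 0, 0, 1 and 0 members, beside 0.359%, 2.01%, 1.17% and 1.16% of the genes it gave an adjusted p. Between genotypes the members' median log2 value (KO minus WT) stood at -0.09 for cDC1, 0.29 for cDC2 and 0.17 for pDC, beside 0.00, 0.09 and 0.00 over all tested genes.

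In pDC the smallest p belonged to Slc2a6. It read 18.5, 21.3 and 22.4 CPM in WT and 50.8, 50.8 and 45.7 in KO, so the groups were well apart. The log2 difference was 1.24 ± 0.34 (adjusted p = 0.211 in edgeR, adjusted p = 0.0363 in DESeq2), the single call of a genotype difference among the members by either tool. Mif read 40.2, 24.4 and 19.7 in WT and 62.1, 43.6 and 53.1 in KO (0.91 ± 0.30, adjusted p = 0.335). Gpi1 read 55.0, 43.0 and 46.4 in WT and 64.0, 97.3 and 79.2 in KO (0.74 ± 0.25, adjusted p = 0.350). Pdk1 read 7.81, 16.0 and 13.9 in WT and 5.85, 6.94 and 4.90 in KO (-1.09 ± 0.39, adjusted p = 0.375). In all 4 genes no WT library overlapped a KO one, and none passed the adjusted threshold of edgeR. The ranges were apart for 8 of 32 members in pDC (6 higher, 2 lower in KO), beside 11.3% of all tested genes (5.76% higher, 5.58% lower). Of the marker lists given above, the summed cDC2 markers were apart too, 550.2 to 595 CPM in pDC WT and 623 to 730 in pDC KO, and their part was not tested.

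In cDC2, Pfkp read 306 and 335 CPM in WT and 138, 198 and 161 in KO (log2 -0.95 ± 0.31, adjusted p = 0.209). Ldha read 127 and 98.1 in WT and 197, 176 and 223 in KO (0.83 ± 0.29, adjusted p = 0.247). Egln3 had 0 counts in WT and 21 in KO, at least 2.85-fold more against the floor of 3 counts (adjusted p = 0.244). Tpi1 was 29.6 ± 7.30 in WT (n = 2) and 47.8 ± 2.68 in KO (n = 3), with an adjusted p of 0.390 in edgeR. In these 4 genes the groups were apart, as for 11 of 32 members and 34.8% of all tested genes. Genes detected were 10840 to 11500 in the cDC2 WT libraries and 12909 to 13797 in cDC2 KO. Ribosomal protein genes took 3.76% and 3.95% of counts in the cDC2 WT libraries and 4.88% to 5.69% in cDC2 KO. Summed macrophage markers were 49.8 to 71.4 CPM in cDC2 WT and 88.1 to 107 in cDC2 KO, thymocyte markers 116 to 176 and 97.6 to 115, and pDC markers 1466 to 1879 and 1061 to 1103. The part of these shifts in the cDC2 values was not tested.

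In cDC1, the smallest p-values were those of Aldoc (12.8 ± 2.21 CPM in WT and 6.51 ± 1.16 in KO), Hif1a (69.5 ± 6.15 and 98.3 ± 3.65), P4ha1 (30.1 ± 6.82 and 43.3 ± 9.08) and Ldhb (3.37 ± 2.44 and 1.86 ± 0.150), with 2 libraries a group. Their log2 differences were -0.98, 0.50, 0.53 and -0.87, each with an adjusted p of 1.00 in edgeR. The Ldhb value turned to 0.18 without cDC1 WT 2. Ranges were apart for 7 of 32 members, beside 37.2% of all tested genes. Summed cDC1 markers were 9589 to 10210 CPM in cDC1 WT and 6284 to 7577 in cDC1 KO, macrophage markers 18.0 to 22.3 and 37.0 to 47.2, thymocyte markers 252 to 275 and 148 to 245, and NK cell markers at most 5.86 in WT and at least 6.86 in KO. Genes detected were 12621 to 12868 in cDC1 WT and 12999 to 13144 in cDC1 KO. Ribosomal protein genes took 6.39% to 6.60% of counts in cDC1 WT and 5.91% to 6.04% in cDC1 KO. The part of these shifts in the cDC1 values was not tested. Over the mean of the 3 subsets, Slc2a6 (0.70 ± 0.22, adjusted p = 0.284), Mif (0.53, 0.364), Ldha (0.42, 0.401) and Pdk1 (-0.54, 0.475) had the smallest p-values in edgeR.

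**Figure D5:**
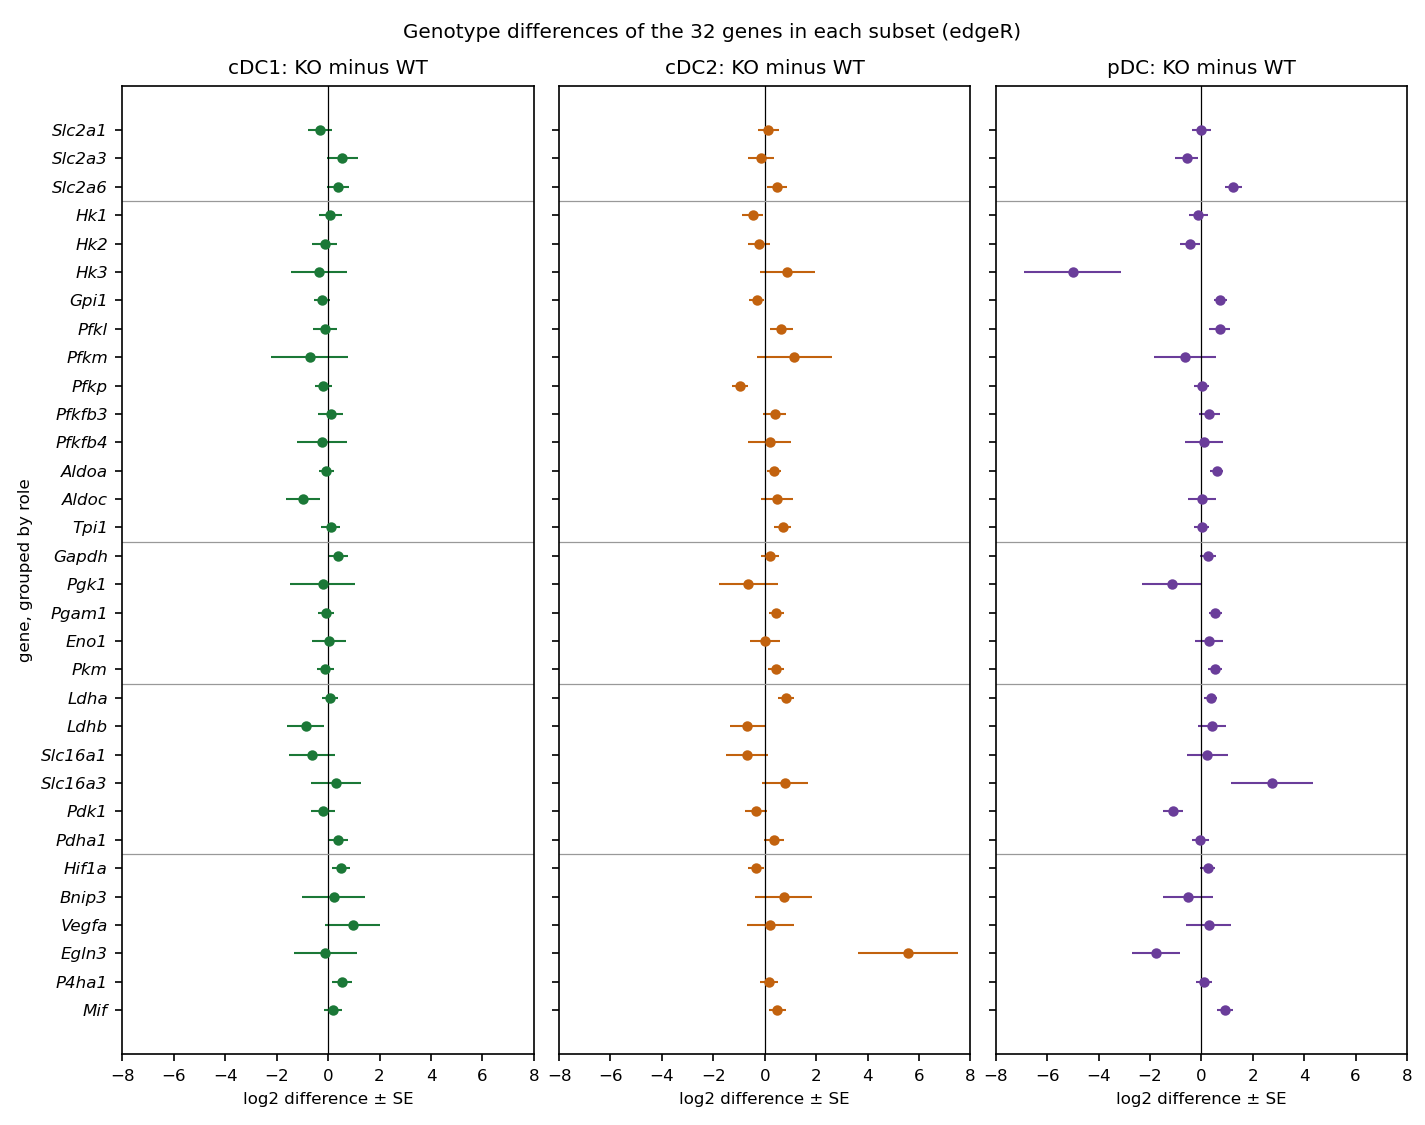
The 3 panels (cDC1, cDC2, pDC) show the log2 difference of KO minus WT for the 32 genes ordered by role, with bars of 1 SE. No gene has an adjusted p under 0.05; the points with the smallest p are Slc2a6 in pDC (1.24) and Pfkp in cDC2 (-0.95).

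The genotype effect was also compared between subsets, and 0 of 32 members passed in any of the 3 differences by edgeR or by DESeq2, where edgeR called 0.00851% (cDC2 minus cDC1), 0% (pDC minus cDC1) and 0% (pDC minus cDC2) of all tested genes, and DESeq2 0.386%, 0.918% and 0.281%. At an unadjusted p under 0.05 there were 1, 2 and 4 members, beside 8.46%, 8.26% and 8.41% of all tested genes. Gpi1, for which the effect in pDC exceeded that in cDC1 by 0.99 ± 0.39 and that in cDC2 by 1.06 ± 0.37, had adjusted p of 0.508 and 0.481. Pfkp, which read lower in cDC2 KO than in cDC2 WT and alike in both pDC groups, had a difference of 0.96 ± 0.42 between pDC and cDC2 (adjusted p = 0.550). The other members under 0.05 unadjusted were Egln3 and Hk3, both with a group at 0 counts. Hk3, in pDC minus cDC1, changed sign to 0.36 without pDC WT 1, the only pDC library with Hk3 counts.

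Other genes of the pathway were read from lists taken up beside the members. Of 17 tested genes among 30 other glycolysis genes, pDC against cDC1 gave 3 higher and 3 lower in WT and 2 and 2 in KO, and pDC against cDC2 gave 2 higher and 1 lower in WT and 3 and 2 in KO. These are 35.3% and 23.5% of the tested list against cDC1 in WT and KO, and 17.6% and 29.4% against cDC2, beside 27.7%, 21.5%, 23.6% and 25.9% of all tested genes. Pgam2, the muscle isoform of phosphoglycerate mutase, led those higher in pDC: it read 22.4, 49.4 and 26.3 CPM in pDC WT, 50.2, 60.8 and 90.7 in pDC KO and 0 in all 4 cDC1 libraries. With the floor of 3 counts over the cDC1 group, it was at least 106-fold higher in pDC WT (787 counts, adjusted p = 5.18e-06) and at least 319-fold higher in pDC KO (1291 counts, adjusted p = 1.23e-06). Pgam1 and Pgam2, which catalyse the same step, thus differed between pDC and cDC1 in opposite directions. Adpgk, an ADP-dependent glucokinase, was 97.0 ± 45.4 CPM in pDC WT (n = 3) and 27.1 ± 4.82 in cDC1 WT (n = 2, adjusted p = 0.00592), and G6pc3, a glucose-6-phosphatase, was 7.23 ± 1.49 and 26.8 ± 0.277 (adjusted p = 0.000715).

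Of 28 tested genes on a list of other hypoxia and HIF genes (40 symbols, 2 of them for 1 gene), pDC against cDC1 gave 2 higher and 6 lower in WT and 4 and 5 in KO, and pDC against cDC2 gave 3 and 3 in WT and 5 and 3 in KO. The shares called, 28.6% and 32.1% against cDC1 and 21.4% and 28.6% against cDC2 in WT and KO, stand beside the same shares of all tested genes. The list's median log2 difference was -0.55 and -0.03 against cDC1 and -0.10 and -0.23 against cDC2. Plod2, a collagen lysyl hydroxylase, had 533 counts in pDC WT and 3 in cDC1 WT, a ratio of 71.5 (counting interval 24.3 to 348, adjusted p = 4.60e-05). Tfrc, the transferrin receptor, was 206 ± 78.9 CPM in pDC WT (n = 3) and 36.0 ± 9.52 in cDC1 WT (n = 2, adjusted p = 0.000652). Ndrg1, a stress-response gene raised in hypoxia, ran the other way, 8.65 ± 1.80 against 41.3 ± 0.329 (adjusted p = 0.00220). Of 10 tested genes of pyruvate dehydrogenase and pyruvate import, the carrier Mpc2 was the single call, below the share of all tested genes, and was lower in pDC than in cDC1 in both genotypes (log2 -1.44, adjusted p = 0.00463 in WT, and -1.37, adjusted p = 0.00765 in KO). None of these lists had a call between genotypes in any subset by edgeR.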

How the data were processed

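RNA was measured in 15 libraries of 6 groups (3 subsets, WT and KO), as raw read counts per gene in 1 deposited table, with no normalization by the authors. Per the labels' protocols, each library holds 3′ tags that keep the strand, primed by oligo-dT with a barcode, so that samples were joined before amplification. The build (mm10) and the tools STAR, HTSeq and DESeq2 come from the submitters' processing notes. Which versions and settings were used, and how duplicate or shared reads were treated, is not given in the sources used here.

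Of 22165 rows, 21822 matched a symbol in GENCODE M21 (GRCm38). Genes were kept by filterByExpr on the 6 groups, libraries scaled by TMM, and 1 quasi-likelihood model with robust spread and no block was fitted to all libraries with edgeR 4.0.16 (limma 3.58.1, R 4.3.3), which leaves groups of 2 on a spread pooled over groups (common biological coefficient of variation 0.395). There were 13 contrasts. P-values are two-sided, adjusted over 11746 genes, with a threshold of 0.05. Paralog ratios used exact permutation. Correlations of deviations from group means were -0.156 to 0.163 for same-numbered libraries and -0.254 to 0.254 for different numbers. In groups of 2 the deviations mirror each other, so this check cannot say whether replicate numbers pair the samples. Replicates differed by more than counting error (chi-square per degree of freedom 27.89 to 101.12). The fit was tested on simulated data.

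Alternatives were DESeq2 1.42.0, RLE scaling, offsets in each library for GC content and transcript length (splines of 4 df), a fit of the compared groups alone, a filter at 10 CPM, none at all, the replicate block, 1 count added in ratios, and each library left out in turn. A block with crossed cDC1 numbers was added after seeing the data. The 32 members, the pathway and marker lists, and the tests were chosen with earlier results of these data known. Named in full are members past the threshold, up to 8 per direction, or the 4 with the smallest p where none passed; Stk11; and of each pathway list up to 3 past the threshold per direction. Some further called members are named with shorter values. All lists were counted and the B cell, NK cell, erythroid, monocyte and stromal marker lists are summarised in the closing section.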

Additional observations from a re-analysis of the deposited data

How the results depend on the processing

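Counts of called members that moved by over 1.5 times were these. For cDC2 against cDC1 in WT, 4 in the fit reported, RLE scaling gave 2, offsets for length and GC content gave 0 and a fit of only these groups gave 0. Leaving out 1 library gave 0 to 5. For the same subsets in KO, a fit of only these groups gave 1 (Pfkfb4) instead of 0. For KO minus WT in pDC, DESeq2 gave 1 (Slc2a6) instead of 0. For pDC against cDC2 in WT, leaving out 1 library gave 4 to 11, with 4 without cDC2 WT 1, instead of 10. Leaving out 1 library gave 0 to 15 paralog ratios instead of 11. The other counts with calls stayed within 1.5 times: 12 to 18 without 1 library for pDC against cDC1 in WT, 8 to 13 for the same in KO, and 8 to 12 for pDC against cDC2 in KO.

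The replicate number as a block gave 1 call for cDC2 against cDC1 in WT, and the block with crossed cDC1 numbers gave 2, instead of 4. It moved no other count of calls by over 1.5 times. Of calls between pDC and the conventional subsets, the block ended 8 (adjusted p 0.0513 to 0.124): Slc2a6, Aldoc and Slc16a1 against cDC1 in WT, Slc2a3, Pgam1 and Slc16a1 against cDC2 in WT, Pdk1 against cDC1 in KO and Pgam1 against cDC2 in KO.

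2 single values changed sign: Ldhb, cDC1 KO minus cDC1 WT, was 0.18 without cDC1 WT 2 (range without 1 library -1.45 to 0.18), and Hk3, genotype effect in pDC minus that in cDC1, was 0.36 without pDC WT 1 (range -5.20 to 0.36). Of the other values of single genes, 2300 of those without 1 library kept direction and side of the threshold and 293 lost the call, and under other settings 1227 kept both, 118 lost the call and 2 gained it. RLE scaling moved the median of all genes by -0.102 in cDC2 KO minus WT and by 0.106 in the pDC minus cDC2 difference of genotype effects. Under the strict filter the lowest members have no value. Groups of 2 libraries and levels near 1 CPM (Pfkm, Pgk1, Egln3, Hk3 and Slc16a3 in pDC) limit the precision.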

Other observations

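Some genes in branches of glycolysis outside the 32 members were also called between pDC and the conventional subsets. All 9 listed genes of the pentose phosphate pathway, which makes NADPH and ribose from glucose-6-phosphate, were tested. Against cDC1, pDC had 2 higher and 4 lower in WT, and 2 and 3 in KO. Against cDC2 they had 1 higher and 3 lower in WT, and 2 and 1 in KO. These are 66.7% and 55.6% of the list against cDC1 and 44.4% and 33.3% against cDC2, beside 27.7%, 21.5%, 23.6% and 25.9% of all tested genes. Pgls, the lactonase after glucose-6-phosphate dehydrogenase, was 156 ± 6.55 CPM in pDC WT (n = 3), 67.9 ± 12.8 in cDC1 WT and 29.9 ± 2.17 in cDC2 WT (n = 2 each), with adjusted p of 0.00886 and 5.21e-05 for pDC against each in edgeR. Taldo1, transaldolase of the non-oxidative branch, ran the other way, at 125 ± 14.9 CPM in pDC WT and 372 ± 11.5 in cDC1 WT (adjusted p = 0.000226 in edgeR). Pgls was also lower in cDC2 than in cDC1 in WT (log2 -1.18, adjusted p = 0.0397 in edgeR), whereas Prps2, a ribose phosphate kinase, was higher (1.61, adjusted p = 0.0239). Both calls were lost in edgeR with offsets for length and GC content (Pgls -0.72, adjusted p = 0.214, and Prps2 1.31, adjusted p = 0.0620). Prps2 read 87.9 and 38.4 CPM in the cDC2 WT libraries.

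Of 9 tested genes of glucose sensing and MYC, 4 were called for pDC against cDC1 in WT (44.4%, beside 27.7% of all tested genes). Mlx and Mxd4 were higher in pDC, and Myc and Mycl lower. In KO 4 were called against cDC1 (44.4%, beside 21.5%). Against cDC2 the calls were 2 in WT (22.2%, beside 23.6%) and 3 in KO (33.3%, beside 25.9%). Myc had the smallest p of the list against cDC1 in WT. Myc, a transcription factor that raises many glycolysis genes, was 1.08 ± 0.953 CPM in pDC WT (n = 3), 15.4 ± 3.04 in cDC1 WT and 19.3 ± 4.01 in cDC2 WT (n = 2 each). The log2 difference in WT was -3.84 from cDC1 (adjusted p = 0.000355) and -4.16 from cDC2 (adjusted p = 0.000191), and in KO it was -2.96 and -3.27 in the same edgeR fit. Mthfd2, the mitochondrial one-carbon enzyme, was 72.4 ± 9.75 CPM in pDC WT and 271 ± 3.16 in cDC1 WT (adjusted p = 0.000272 in edgeR). It was 1 of 2 called among 8 genes of serine and one-carbon synthesis (25%, beside 27.7% of all tested genes). None of these 3 lists had a member called between genotypes by edgeR.

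Markers of other cells, as summed CPM per library, were these. The 8 monocyte and neutrophil markers summed to 775 to 1128 in cDC1, 1014 to 1722 in cDC2 and 1761 to 3784 in pDC, with Vcan at 0 in cDC1 WT and pDC WT. The 6 B cell markers summed to 8.13 to 22.2 in all groups, the 6 NK cell markers to at most 29.8, and the 6 erythroid markers to at most 41.6, in pDC WT. The 8 stromal and epithelial markers summed to 29.9 to 43.6 in cDC1, 128 to 293 in cDC2 and 96.8 to 162 in pDC, with Krt5 and Pdgfra at 0 in cDC2 WT and in pDC.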
